A study of Mus musculus with 10 samples.

Results

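The 38 kinesin genes on the array were compared between the forebrains of 5 dtg and 5 stg mouse embryos. They are the genes whose symbol begins with Kif and a digit, among 19938 genes that a probe set named with exactly 1 symbol. They held 44 probe sets, and where a gene had several, the brightest on average across the 10 arrays stood for it. Sorted by textbook role, 11 are mitotic kinesins, 15 are transport kinesins and 12 fall in neither class, among them the pseudogene Kif4-ps.

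Each embryo was at stage E12.5, on a mixed CD1/NMRI background, and RNA from part of its forebrain was hybridised to its own Affymetrix Mouse Gene ST array. The study asked how transcripts differ when a permanently active FoxO3, a transcription factor held out of the nucleus by insulin signalling, is driven by the CaMKIIa promoter, which the series text calls forebrain-specific. The titles mark the groups as dtg and stg, and the series text says that presence and activity of the transgenes were checked by genotyping and luciferase. The labels do not spell out the abbreviations or say which transgene, if any, the stg embryos carry. The embryos came from 2 dams, and the dam of each embryo is not given, so litter and group cannot be told apart. The dissection cut the forebrain away from the main part of the thalamus.

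Kinesins are motor proteins that use ATP to walk along microtubules or to shorten their ends. Mitotic kinesins build the spindle, move chromosomes and complete cytokinesis, and their transcripts are made mainly in G2 and M phase. Transport kinesins carry vesicles, organelles and protein complexes, above all along the axons and dendrites of neurons, which no longer divide. The forebrain wall at this stage holds dividing progenitors and newborn neurons side by side.

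All values are log2 intensities, so a difference of -0.23 stands for a linear ratio of about 0.852. Array medians lay between 5.36 and 5.39, array to array correlations across genes between 0.980 and 0.996, and the number of arrays limits the precision. Array stg 5 stood apart, with a mean correlation of 0.985 with the other arrays, which lay at 0.992 to 0.993. The mean of 14 pan-neuronal markers was 7.47 in stg 5, against 8.38 to 8.92 in the dtg embryos and 8.42 to 8.67 in the other stg embryos. The mean of 6 mesenchyme markers was 8.80 in stg 5, against 6.89 to 7.75 in the dtg embryos and 6.54 to 7.66 in the other stg embryos. Of 5 telencephalon markers 4 were measured, with means of 6.99 to 7.48 in dtg and 6.47 to 8.04 in stg. The thalamus markers, 6 in all, had means of 7.21 to 8.22 in dtg and 5.78 to 7.61 in stg. Foxo3 averaged 6.98 in dtg and 6.64 in stg, a difference of 0.34 ± 0.085 (SE, n = 5 per group) with a limma adjusted p of 0.218. Whether that probe set reads the transgene is not given.

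The mitotic kinesins were lower on average in dtg forebrains for every one of the 11 genes, with a median log2 difference of -0.23 and a range of -0.26 to -0.088. The transport kinesins were spread around 0, with 11 of 15 higher and 4 lower, a median of 0.088 and a range of -0.17 to 0.35. The remaining 12 had a median of -0.023 and a range of -0.16 to 0.085. Over all 19938 genes the median was -0.0038, and 51.9% of genes were lower in dtg. In bulk tissue, fewer cells of a type and less RNA per cell cannot be told apart.

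No kinesin passed an adjusted p of 0.05 in limma, where 21 of all genes did (0.105%), and the smallest kinesin adjusted p was 0.478. At an unadjusted limma p below 0.05, 7 of the 38 kinesin genes were lower in dtg (18.4%), against 3.48% of all genes. All 7 belong to the mitotic class. In the other direction 0 kinesins passed, against 4.1% of all genes. In 0 kinesin genes did the dtg and stg values stay apart without overlap, against 1.6% of all genes. Over all genes, the within-group SD had a median of 0.12, and over the mitotic kinesins 0.16.

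**Figure D1:**
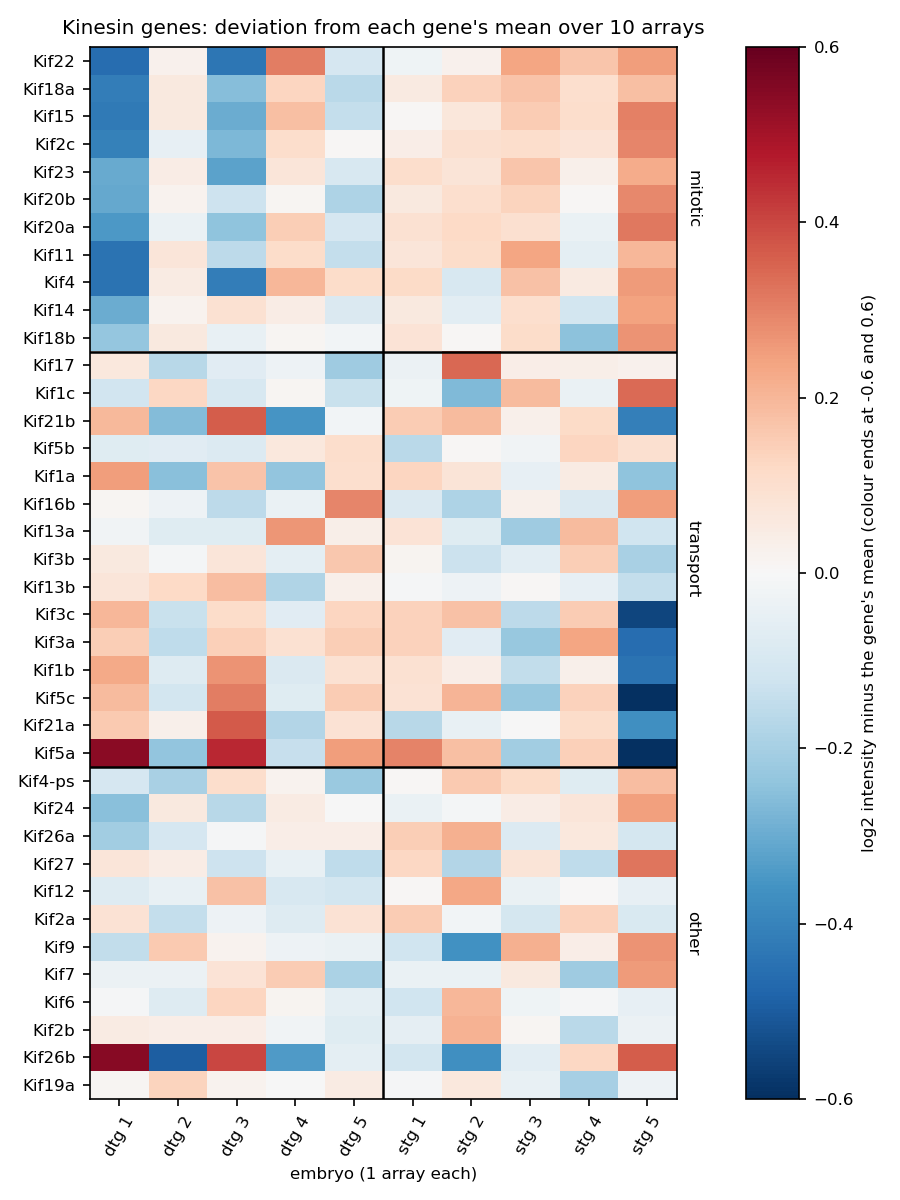
Each row is a kinesin gene and each column an embryo, dtg 1 to 5 on the left and stg 1 to 5 on the right. Colour gives the log2 deviation from that gene's mean over the 10 arrays, and values beyond the end of the scale take its end colour. The mitotic block is lowest in dtg 1 and dtg 3 and highest in stg 5, and many transport genes are lowest in stg 5.

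**Figure D2:**
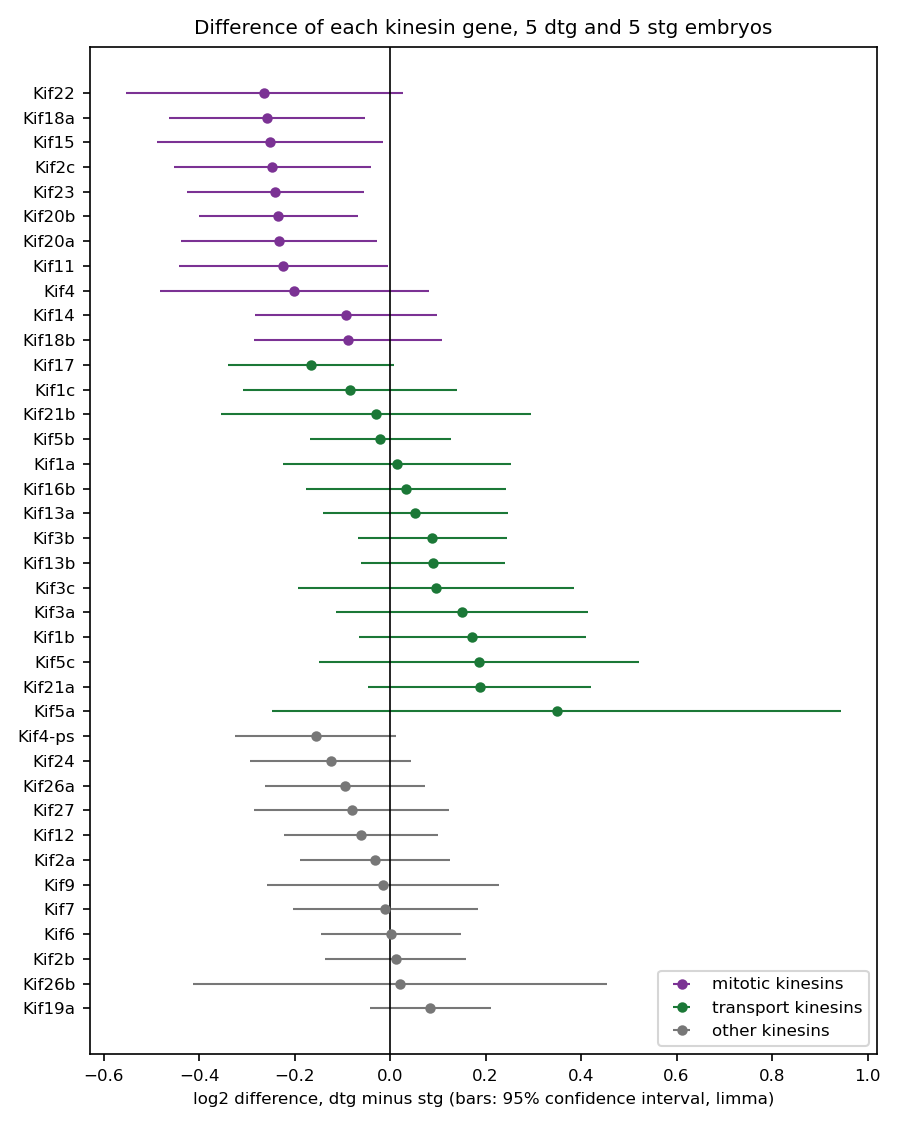
Points give the log2 difference, dtg minus stg, of each of the 38 kinesin genes, and bars the 95% confidence interval of the limma fit, with 5 embryos per group. The 11 mitotic genes lie between -0.26 and -0.088, and 7 of their intervals exclude 0, while every interval of the transport and other genes includes 0.

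Among the mitotic kinesins, the midzone and cytokinesis group (Kif14, Kif20a, Kif20b and Kif23) had a median difference of -0.23. At an unadjusted limma p below 0.05, 3 of its 4 genes were lower in dtg, against 3.48% of all genes. All 4 were highest in stg 5, so the 3 are not separate results. Kif20b works at the midbody, where daughter cells part, and its loss in mice leaves a small cortex. Kif20b read 7.05, 7.38, 7.23, 7.37 and 7.17 in dtg embryos 1 to 5, against 7.41, 7.45, 7.49, 7.36 and 7.64 in stg embryos 1 to 5. Of the 5 dtg embryos, 3 lay below every stg embryo, and the others lay just above stg 4, the lowest stg embryo. The difference was -0.23 ± 0.076 (SE, n = 5 per group), a linear ratio of 0.85, with a 95% interval of -0.40 to -0.067 and an adjusted p of 0.478 in limma. The exact two-sided permutation p was 0.0238, where the smallest possible over 252 assignments is 0.00794 and 38 genes were tested in this way.

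Kif23 is the motor subunit of centralspindlin, which bundles midzone microtubules and places the cleavage furrow. Kif23 read 8.11, 8.46, 8.09, 8.49 and 8.32 in dtg embryos 1 to 5, against 8.52, 8.49, 8.58, 8.44 and 8.63 in stg embryos 1 to 5. Embryos dtg 1, dtg 3 and dtg 5 lay below every stg embryo, while dtg 2 and dtg 4 lay within the stg range. The difference was -0.24 ± 0.085, with a limma adjusted p of 0.520 and an exact permutation p of 0.0317. Kif20a brings the chromosomal passenger complex to the midzone. Kif20a read 7.31, 7.61, 7.41, 7.80 and 7.55 in dtg embryos 1 to 5, against 7.75, 7.77, 7.75, 7.61 and 7.97 in stg embryos 1 to 5. Its 3 lowest dtg values lay below the stg range, and its difference was -0.23 ± 0.094, with a limma adjusted p of 0.606 and an exact permutation p of 0.0714. Kif14, which recruits citron kinase in cytokinesis, ran between 6.68 and 7.07 in dtg and between 6.87 and 7.22 in stg, a difference of -0.092 ± 0.087 with an adjusted p of 0.868 in limma. A second Kif14 probe set, with a mean of 3.29, had a difference of 0.083, opposite in sign.

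The kinesins that set the length of microtubule ends had a median difference of -0.25 over 3 genes. Kif18a damps the swings of chromosomes at the metaphase plate. Kif18a read 6.57, 7.04, 6.72, 7.11 and 6.82 in dtg embryos 1 to 5, against 7.03, 7.12, 7.15, 7.08 and 7.16 in stg embryos 1 to 5. The stg values spanned little, with an SD of 0.053, whereas the dtg values had an SD of 0.22 and ran both below and into the stg range. The difference was -0.26 ± 0.094, with a limma adjusted p of 0.539 and an exact permutation p of 0.0397. Kif2c, a depolymerase at centromeres that frees wrongly attached microtubules, read 7.90, 8.25, 8.03, 8.40 and 8.31 in dtg embryos 1 to 5, against 8.34, 8.39, 8.41, 8.38 and 8.59 in stg embryos 1 to 5. Here 4 of 5 dtg embryos lay below every stg embryo, and dtg 4 alone lay inside the stg range. The difference was -0.25 ± 0.094, with a limma adjusted p of 0.573 and an exact permutation p of 0.0317. Kif18b, which shortens the astral microtubules of the spindle, ran between 7.12 and 7.41 in dtg and between 7.11 and 7.62 in stg, with a difference of -0.088 ± 0.091 and an adjusted p of 0.877 in limma. In Kif18b no dtg embryo lay below every stg embryo.

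The pair that keeps the spindle bipolar had a median difference of -0.24. Kif11 slides antiparallel microtubules apart and is the target of monastrol-type spindle inhibitors. Kif11 read 7.90, 8.42, 8.19, 8.45 and 8.20 in dtg embryos 1 to 5, against 8.42, 8.45, 8.58, 8.29 and 8.54 in stg embryos 1 to 5. Embryos dtg 1, dtg 3 and dtg 5 lay below every stg embryo, dtg 2 and dtg 4 among them. Its difference was -0.22 ± 0.10, with a limma adjusted p of 0.649 and an exact permutation p of 0.0873. Kif15, which can keep spindle poles apart when Kif11 is inhibited, read 8.05, 8.53, 8.17, 8.65 and 8.33 in dtg embryos 1 to 5, against 8.48, 8.54, 8.62, 8.58 and 8.78 in stg embryos 1 to 5. The same 3 dtg embryos lay below the stg range, and dtg 4 lay above 4 of the stg values. Its difference was -0.25 ± 0.11, with a limma adjusted p of 0.629 and an exact permutation p of 0.0873.

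The chromokinesins, which bind chromosome arms, had a median difference of -0.23, and neither reached an unadjusted p of 0.05. Kif22, which pushes chromosome arms away from the poles, spanned 7.15 to 7.91 in dtg and 7.58 to 7.86 in stg. It had the largest mean difference of the class, -0.26 ± 0.13, and the widest dtg spread (SD 0.32), with an adjusted p of 0.704 in limma. Kif4, which loads condensin and shortens midzone microtubules, spanned 7.14 to 7.78 in dtg and 7.48 to 7.83 in stg, with a difference of -0.20 ± 0.13 and an adjusted p of 0.790 in limma. Kif4 may share sequence with the pseudogene Kif4-ps, so the values of both are uncertain.

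**Figure D3:**
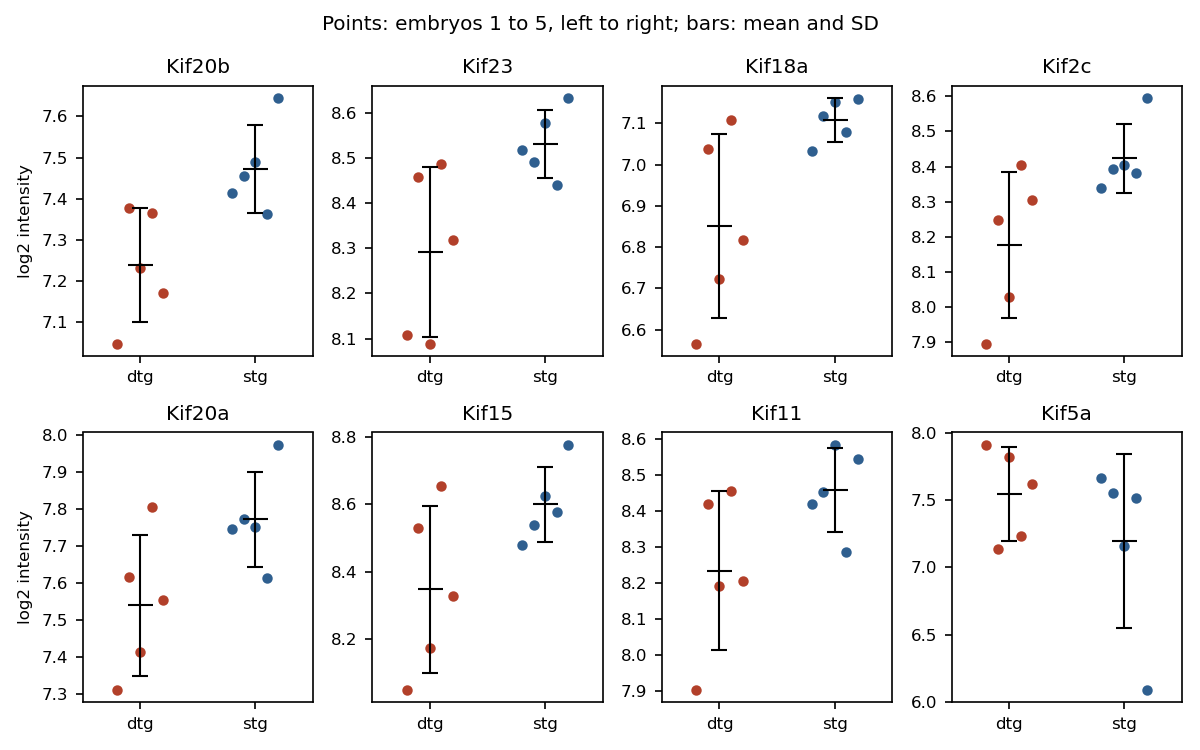
Each panel shows 1 gene, with log2 intensity on its own vertical scale, dtg embryos left (red) and stg embryos right (blue), and bars for the mean and SD of 5 embryos. In the 7 mitotic genes some dtg points lie below every stg point and dtg 4 lies among the stg points, and in Kif5a the low point in stg is stg 5 at 6.09.

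The promoters of the kinesin genes were searched for short sequence elements. The RefSeq promoter table of GRCm38.p6, with windows of 250 bases before the start site and 50 from it, held 31 of the 38 kinesin genes. Many G2/M genes carry a CHR element (cell cycle genes homology region), TTTGAA, near the start site, which the DREAM and MMB complexes bind. TTTGAA was present on either strand in 9 of 10 mitotic kinesin genes (90%), in 1 of 11 transport genes (9.09%) and in 2 of 10 other kinesin genes (20%), against 20.2% of all 27025 genes with a window. Within 25 bases of the start site, a limit chosen after the matches were seen, it was present in 7 of 10 mitotic, 0 of 11 transport and 1 of 10 other genes, against 2.88% of all genes. The 7 mitotic windows are shown 5′ to 3′ from 70 bases before to 30 bases from the RefSeq start site, with TTTGAA or its reverse complement TTCAAA in capitals.
Kif11, chr19:37376312-37376411, plus strand: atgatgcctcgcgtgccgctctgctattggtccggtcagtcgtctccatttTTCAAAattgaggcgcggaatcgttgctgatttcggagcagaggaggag
Kif15, chr9:122951011-122951110, plus strand: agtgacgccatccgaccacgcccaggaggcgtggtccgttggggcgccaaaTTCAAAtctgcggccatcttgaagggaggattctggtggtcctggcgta
Kif22, chr7:127042391-127042490, minus strand: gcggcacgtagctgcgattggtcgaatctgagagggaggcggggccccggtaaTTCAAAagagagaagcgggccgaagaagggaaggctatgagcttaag
Kif23, chr9:61946770-61946869, minus strand: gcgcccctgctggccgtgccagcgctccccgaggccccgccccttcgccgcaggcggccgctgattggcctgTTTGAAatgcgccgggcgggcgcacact
Kif18b, chr11:102925095-102925194, minus strand: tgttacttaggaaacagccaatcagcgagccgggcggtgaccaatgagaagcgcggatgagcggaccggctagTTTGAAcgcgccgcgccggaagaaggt
Kif20b, chr19:34922288-34922387, plus strand: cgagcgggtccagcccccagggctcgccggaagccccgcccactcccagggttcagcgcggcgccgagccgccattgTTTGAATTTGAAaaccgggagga
Kif4, chrX:100625995-100626094, plus strand: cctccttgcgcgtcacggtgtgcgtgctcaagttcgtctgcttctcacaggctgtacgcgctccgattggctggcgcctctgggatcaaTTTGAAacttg

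In Kif11 and Kif15 the capitals lie at positions -19 to -14, and in Kif22 at -17 to -12, all on the opposite strand, with the first transcribed base as position 1. In Kif23, Kif18b and Kif4 they lie just inside the transcribed sequence, and Kif20b carries a tandem pair at positions 8 to 13 and 14 to 19. In Kif2c and Kif14 the match lies farther out, at -103 to -98 and at -228 to -223. The matched genes include Kif18b and Kif14, whose differences were the smallest of the class, and the gene without a match, Kif18a, had one of the larger ones. Kif18a is shown for that reason, and Kif5c as an example of a transport gene without a match.
Kif18a, chr2:109280668-109280767, plus strand: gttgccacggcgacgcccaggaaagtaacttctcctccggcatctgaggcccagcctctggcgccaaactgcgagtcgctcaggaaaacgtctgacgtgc
Kif5c, chr2:49619216-49619315, plus strand: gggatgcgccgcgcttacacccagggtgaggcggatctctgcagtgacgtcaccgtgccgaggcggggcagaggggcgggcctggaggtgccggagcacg

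The CCAAT box (CCAAT, either strand) was present in 6 of 10 mitotic, 3 of 11 transport and 5 of 10 other genes, against 41.1% of all genes, and no CCAAT match overlapped a TTTGAA match in a kinesin window. The forkhead core GTAAACA that FoxO factors can bind was present in 0 of the 31 kinesin genes on either strand, against 4.05% of all genes. These are matches of letters in short windows, which say nothing of binding. The mitotic class was sorted by role, and many G2/M genes carry TTTGAA. The part of these elements in the dtg and stg difference was not tested.

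The lower mitotic values were not spread evenly over the dtg embryos. Averaged over the 11 mitotic genes as deviations from each gene's mean, the values were -0.37, 0.029, -0.22, 0.12 and -0.084 in dtg embryos 1 to 5, against 0.060, 0.053, 0.15, 0.0074 and 0.26 in stg embryos 1 to 5. Embryos dtg 1, dtg 3 and dtg 5 lay below every stg embryo, and dtg 2 and dtg 4 lay within the stg range. Embryo dtg 1 was the lowest of the 10 arrays in 9 of 11 mitotic genes, and stg 5 the highest in 9 of 11. Without stg 5 the mitotic median was -0.20, without dtg 1 it was -0.18 and without dtg 3 it was -0.20, and all 11 mitotic genes were still lower in dtg in each of these fits. Each of them left 3 mitotic genes, Kif18a, Kif20b and Kif23, at an unadjusted p below 0.05. The share of all genes lower at that limit was 2.90% without stg 5, 2.58% without dtg 1 and 2.65% without dtg 3. The small differences of Kif14 and Kif18b were -0.042 and -0.032 without stg 5, and -0.028 and -0.041 without dtg 1. Without dtg 1, Kif11 was at -0.14 and Kif4 at -0.11, and without dtg 3 Kif4 was at -0.12.

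The G2/M markers outside the kinesin family were low in the same embryos. Of 17 named, 16 were measured, and all 16 were lower in dtg, with a median of -0.17. At an unadjusted p below 0.05, 6 of them were lower, against 3.48% of all genes, and 0 passed an adjusted p of 0.05. The mean deviations of these markers were -0.37, 0.084, -0.26, 0.12 and -0.025 in dtg embryos 1 to 5, against 0.075, 0.066, 0.11, 0.0021 and 0.21 in stg embryos 1 to 5. With this marker mean as a covariate, the mitotic kinesin median was -0.048, 8 of 11 genes were lower and 0 had an unadjusted p below 0.05, where 5.81% of all genes did in either direction. The marker mean closely followed the mitotic kinesins across embryos and was lower on average in dtg. A smaller difference in this fit was therefore built in, and its cause was not tested. The S phase markers were likewise all lower, 13 of 13, with a median of -0.18, and 5 of them had an unadjusted p below 0.05. The radial glia markers were split 5 lower and 5 higher, with a median of 0.00037. Among them 1 had an unadjusted p below 0.05, Pax6, higher in dtg by 0.22 ± 0.064 (SE) with a limma adjusted p of 0.380. Over all genes, 4.1% were higher at the unadjusted limit.

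Markers of red blood cells ran with the mitotic kinesins in some embryos but not in others. Of 5 erythroid markers 4 were measured, and all 4 were lower in dtg, with a median of -0.23. Against 3.48% of all genes, 0 of these 4 markers were lower at an unadjusted p below 0.05. Their mean deviations were -0.63, 0.14, -0.69, 0.42 and 0.18 in dtg embryos 1 to 5, against 0.064, -0.74, 0.22, 0.020 and 1.02 in stg embryos 1 to 5. They were low in dtg 1 and dtg 3 and highest in stg 5, like the mitotic kinesins. They were also low in stg 2, where the mitotic mean deviation was 0.053, and not low in dtg 5, where it was -0.084. Their mean log2 level ran between 8.06 and 9.18 in dtg and between 8.01 and 9.77 in stg. The mean deviations of the mesenchyme and endothelial markers were also highest in stg 5, at 1.48 and 0.45. In dtg 1 they were 0.13 and -0.019. The part of red blood cells or of these other cells in the mitotic values was not tested.

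**Figure D4:**
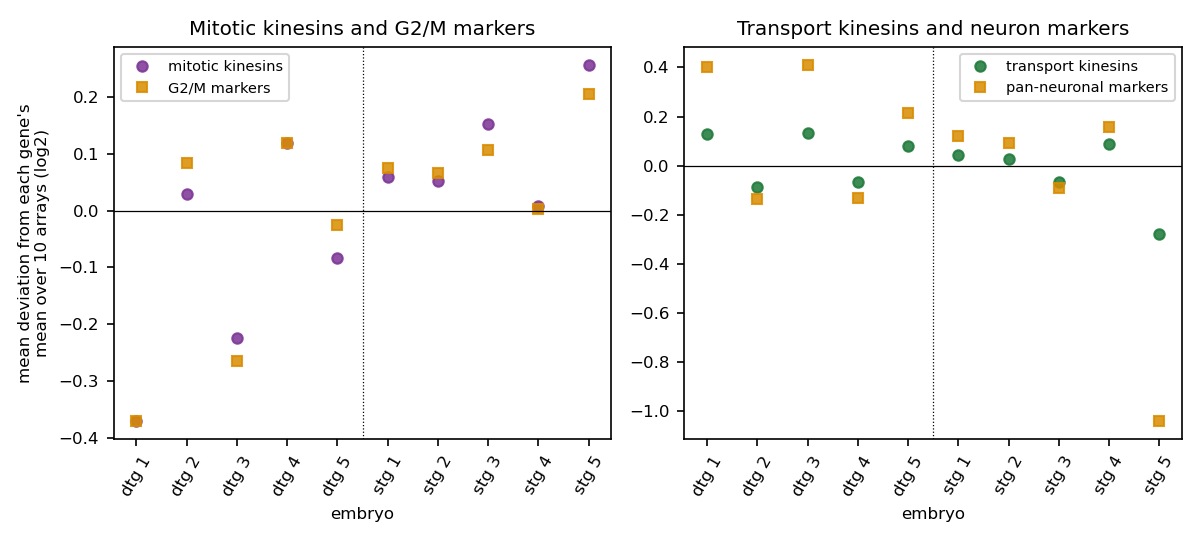
Points give, for each embryo, the mean log2 deviation from each gene's mean over the 10 arrays, with dtg left and stg right of the dotted line and a separate vertical scale in each panel. On the left the 11 mitotic kinesins (circles) and 16 G2/M markers (squares) are both lowest in dtg 1 at -0.37, and on the right the 15 transport kinesins and 14 pan-neuronal markers are lowest in stg 5, at -0.28 and -1.04.

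In the transport class, 0 of 15 genes had an unadjusted limma p below 0.05, against 7.58% of all genes in either direction. A count of 0 among 15 genes is near that share and is not read as a result. Adjusted p values in the class were 0.679 and above. The kinesin-1 heavy chains, which haul vesicles and mitochondria together with kinesin light chains, had a median difference of 0.19 over 3 genes, and of 0.042 without stg 5. The neuron-enriched Kif5a had the largest mean difference of all kinesins. Kif5a read 7.91, 7.13, 7.82, 7.23 and 7.62 in dtg embryos 1 to 5, against 7.67, 7.55, 7.16, 7.51 and 6.09 in stg embryos 1 to 5. Embryos dtg 1 and dtg 3 lay above every stg embryo, and dtg 2 lay above stg 5 alone. The difference of 0.35 ± 0.27 (95% interval -0.25 to 0.95, limma adjusted p 0.834) was 0.071 ± 0.16 without stg 5. Kif5c, likewise rich in neurons, had a difference of 0.19 ± 0.15 and its lowest value, 8.49, in stg 5, without which the difference was 0.042 ± 0.11. The widely expressed Kif5b had a difference of -0.02 ± 0.068, with a 95% interval of -0.17 to 0.13.

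The kinesin-2 group had a median of 0.092 over 4 genes, and of 0.011 without stg 5. Kif3a and Kif3b, which pair to serve both cilia and axons, had differences of 0.15 ± 0.12 and 0.088 ± 0.071, and Kif3c, an axonal member, 0.096 ± 0.13. Without stg 5 these were 0.055 for Kif3a, 0.051 for Kif3b and -0.029 for Kif3c. Kif17, a dendritic motor of NMDA receptor vesicles, was the transport gene with the smallest p. Kif17 read 4.22, 3.99, 4.09, 4.13 and 3.94 in dtg embryos 1 to 5, against 4.12, 4.50, 4.20, 4.19 and 4.18 in stg embryos 1 to 5. Its highest value was in stg 2, and 3 dtg embryos lay below every stg embryo. The difference was -0.17 ± 0.08, with a limma adjusted p of 0.679 and an exact permutation p of 0.0794. Its mean of 4.16 lay near the lower quartile of all gene means, 4.15, and the table gives no detection call.

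The kinesin-3 group had a median of 0.043 over 6 genes. Kif1b, which carries mitochondria and synaptic vesicle precursors, read 9.74, 9.43, 9.78, 9.43 and 9.60 in dtg embryos 1 to 5, against 9.60, 9.55, 9.36, 9.54 and 9.07 in stg embryos 1 to 5. Embryos dtg 1 and dtg 3 lay above every stg embryo and stg 5 lay below all others, and the difference was 0.17 ± 0.11 with a limma adjusted p of 0.784 and an exact permutation p of 0.198. Without stg 5 the Kif1b difference was 0.083 ± 0.088. Kif13b, a vesicle motor also called GAKIN, read 6.72, 6.77, 6.84, 6.47 and 6.68 in dtg embryos 1 to 5, against 6.64, 6.62, 6.66, 6.60 and 6.51 in stg embryos 1 to 5. Here 4 of 5 dtg embryos lay above every stg embryo and dtg 4 lay below them all, with a difference of 0.09 ± 0.07, a limma adjusted p of 0.834 and an exact permutation p of 0.23. Kif1a, the main motor of synaptic vesicle precursors, had a difference of 0.015 ± 0.11 with a 95% interval of -0.22 to 0.25, and of -0.043 without stg 5. Kif1c, Kif13a and the endosome motor Kif16b had differences of -0.084 ± 0.10, 0.052 ± 0.089 and 0.033 ± 0.096, which were -0.0091 for Kif1c, 0.030 for Kif13a and 0.099 for Kif16b without stg 5.

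The neuronal kinesin-4 genes encode slow motors that restrain microtubule growth. Kif21a read 8.73, 8.61, 8.94, 8.40 and 8.66 in dtg embryos 1 to 5, against 8.41, 8.53, 8.57, 8.68 and 8.21 in stg embryos 1 to 5. Embryos dtg 1 and dtg 3 lay above every stg embryo, and the others lay in the stg range. The difference was 0.19 ± 0.11, with a limma adjusted p of 0.753 and an exact permutation p of 0.151, and it was 0.12 without either stg 5 or dtg 3. Kif21b had a difference of -0.029 ± 0.15, with its lowest value, 7.94, in stg 5, and of -0.14 without stg 5.

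As a class the transport kinesins had mean deviations of 0.13, -0.086, 0.13, -0.067 and 0.081 in dtg embryos 1 to 5, against 0.043, 0.028, -0.068, 0.087 and -0.28 in stg embryos 1 to 5. Embryo stg 5 was the lowest array in 8 of 15 genes, and without it the transport median was 0.042. The 14 pan-neuronal markers had mean deviations of 0.40, -0.13, 0.41, -0.13 and 0.21 in dtg embryos 1 to 5, against 0.12, 0.091, -0.091, 0.16 and -1.04 in stg embryos 1 to 5. Of these markers 13 were higher in dtg, with a median of 0.30. Against 4.1% of all genes, 0 of these markers were higher at an unadjusted p below 0.05. With their mean as a covariate, the transport median was 0.014 and the mitotic median -0.14, with all 11 mitotic genes lower and 2 of them, Kif20b and Kif23, at an unadjusted p below 0.05, where 3.37% of all genes were lower at that limit.

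The thalamus markers were higher in dtg in 6 of 6 genes, each at an unadjusted p below 0.05 and none at an adjusted p below 0.05, with a median of 1.03. Over all genes, 4.1% were higher at the unadjusted limit. With the mean of the thalamus markers as a covariate, the transport median was -0.050 and the mitotic median -0.098 with 9 of 11 genes lower. In that fit 0 kinesins had an unadjusted p below 0.05, where 2.79% of all genes did.

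Set against each other, the mitotic minus the transport mean deviation was -0.50, 0.12, -0.36, 0.19 and -0.16 in dtg embryos 1 to 5, against 0.017, 0.024, 0.22, -0.080 and 0.53 in stg embryos 1 to 5. The groups overlapped, with 3 dtg embryos below every stg embryo and dtg 2 and dtg 4 above 3 of the stg embryos. The contrast of the class medians was -0.32, and it was -0.24 without either dtg 1 or stg 5. No p is given for these class values, since the classes were drawn up with earlier results of these arrays known.

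**Figure D5:**
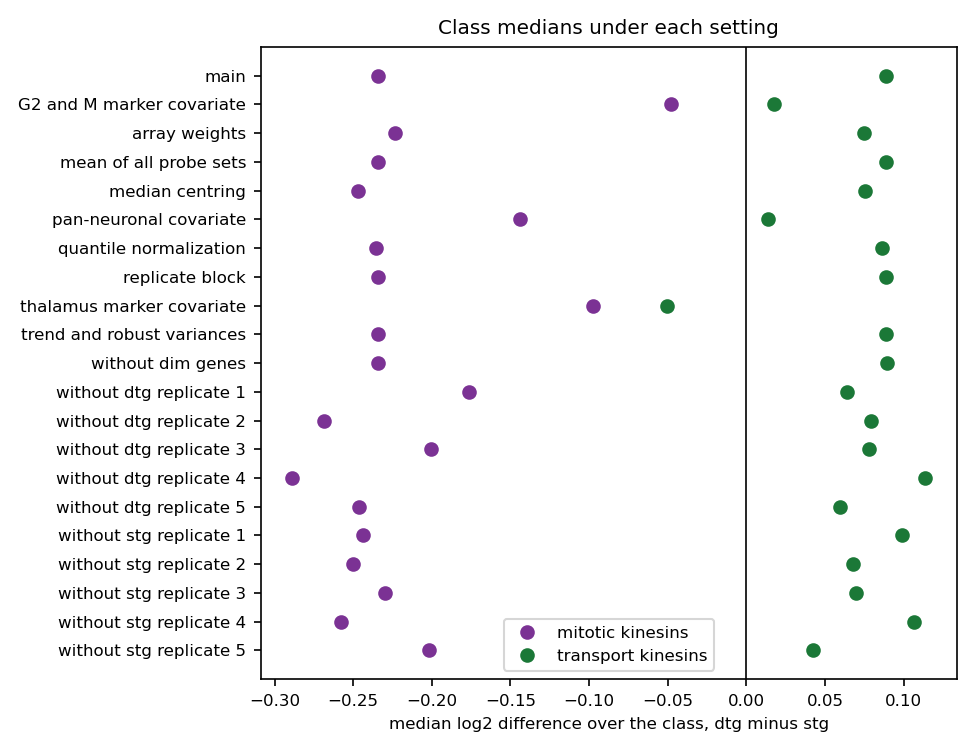
Points give the median log2 difference, dtg minus stg, of the 11 mitotic and 15 transport kinesins under each setting of the fit, 1 row per setting. The mitotic median stays below 0 in all of them, between -0.29 and -0.048, and the transport median is above 0 except with the thalamus marker covariate, at -0.050.

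The 12 kinesins outside these classes are a mixed group of ciliary, centriolar and less known kinesins, the microtubule depolymerases Kif2a and Kif2b, and the pseudogene. Of the 12, 0 reached an unadjusted limma p of 0.05, against 7.58% of all genes in either direction. The pseudogene Kif4-ps read 3.95, 3.86, 4.16, 4.07 and 3.83 in dtg embryos 1 to 5, against 4.06, 4.21, 4.17, 3.98 and 4.24 in stg embryos 1 to 5. The values overlapped, with a difference of -0.16 ± 0.077 and a limma adjusted p of 0.696, and the second probe set of Kif4-ps had -0.016. Kif24, which acts at centrioles, read 6.37, 6.67, 6.45, 6.67 and 6.62 in dtg embryos 1 to 5, against 6.58, 6.61, 6.66, 6.69 and 6.86 in stg embryos 1 to 5. Its values overlapped with a difference of -0.12 ± 0.078 and a limma adjusted p of 0.781. Kif19a, which limits the length of cilia, read 4.85, 4.97, 4.86, 4.84 and 4.89 in dtg embryos 1 to 5, against 4.83, 4.90, 4.80, 4.64 and 4.81 in stg embryos 1 to 5. Every dtg value lay above the stg median, the difference was 0.085 ± 0.058 and the limma adjusted p 0.806.

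Kif26a, a kinesin without motor activity, read 6.59, 6.70, 6.79, 6.84 and 6.84 in dtg embryos 1 to 5, against 6.95, 7.01, 6.72, 6.86 and 6.69 in stg embryos 1 to 5. Every dtg value lay below the stg median, yet the ranges overlapped, and the difference was -0.094 ± 0.077 with a limma adjusted p of 0.842. The remaining 8 lay between -0.08 for Kif27 and 0.021 for Kif26b. They include Kif7, the ciliary regulator of hedgehog signalling, at -0.0098 ± 0.089, and Kif2a, which acts at spindle poles and trims axon branches, at -0.031 ± 0.072. Kif2b, a spindle depolymerase in dividing cells whose signal was dim here, was at 0.012 ± 0.068. Neither is counted among the 11 mitotic genes. The probe sets of Kif26b disagreed, with 0.021 for the brighter and -0.23 for the second.

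Partners of the mitotic kinesins were mostly lower in dtg as well. Of 18 spindle partners, 17 were lower in dtg, with a median of -0.20. At an unadjusted limma p below 0.05, 6 were lower, against 3.48% of all genes, and 0 passed an adjusted p of 0.05. Aurkb, the kinase that Kif20a brings to the midzone, averaged 8.43 ± 0.20 in dtg and 8.69 ± 0.11 in stg (SD, n = 5 each), a difference of -0.26 with a limma adjusted p of 0.554. Birc5, which anchors that kinase complex, averaged 6.77 ± 0.25 in dtg and 7.04 ± 0.12 in stg, with a limma adjusted p of 0.596. Tpx2, which starts spindle microtubules, averaged 8.65 ± 0.19 in dtg and 8.85 ± 0.063 in stg, with a limma adjusted p of 0.606. This list and the G2/M markers share Aurka, Aurkb, Birc5, Plk1, Bub1, Bub1b, Cdca8 and Tpx2. Of the partners at an unadjusted p below 0.05, all but Prc1 are among the shared genes, so their values are counted in both lists.

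Of 11 kinesin light chains and cargo adaptors, 10 were measured, and 7 were higher and 3 lower in dtg, with a median of 0.066. Of the 10, 0 had an unadjusted limma p below 0.05, against 7.58% of all genes in either direction. The scaffold Mapk8ip2 averaged 7.87 ± 0.096 in dtg and 7.61 ± 0.33 in stg, the mitochondrial adaptor Trak1 7.39 ± 0.048 in dtg and 7.48 ± 0.083 in stg, and Kifap3, the partner of Kif3a and Kif3b, 8.50 ± 0.16 in dtg and 8.35 ± 0.17 in stg, with limma adjusted p values of 0.711 and above. Dynein and dynactin, which move cargo the opposite way, had 10 of 17 measured genes higher and 7 lower, with a median of 0.028. Of the 17, 0 had an unadjusted p below 0.05, against the same 7.58% of all genes. The dynein chains Dync1li2 and Dync1li1 differed by 0.11 and 0.19, and Nde1, a dynein regulator in dividing progenitors, by -0.16. Among 4 measured kinesins outside the Kif number series, the kinetochore motor Cenpe differed by -0.18, Stard9 by -0.084 and Kifc2 by 0.068, with limma adjusted p values of 0.780 and above.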

How the data were processed

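RNA from 10 embryonic forebrains was measured on Affymetrix Mouse Gene ST arrays, 1 array per embryo. The values deposited by the authors are log2 intensities of 35556 probe sets. The submitters' processing notes name Affymetrix Expression Console as the software. Its version, algorithm and background correction are not given in the sources used here. The near-equal array medians point to normalization before deposit, and no further normalization, pseudocount or filter was applied in the main fit.

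Gene symbols came from the platform's gene table, and older ones were replaced by the RefSeq symbol (GRCm38.p6) of the same gene identifier. Of the probe sets, 21789 named 1 symbol, 1621 several and 12146 none, and only the first kind was used. For each of 19938 genes the probe set with the highest mean was kept (999 genes had more than 1).

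Groups came from the sample titles. limma 3.58.1 in R 4.3.3 fitted group alone to all genes, with empirical Bayes variances, two-sided tests, Benjamini-Hochberg adjustment over 19938 genes and a threshold of 0.05. Single kinesins also had an exact permutation test. The fit was tested on simulated data with known changes. Replicate numbers were not used as pairs: same-numbered embryos correlated at -0.25 to 0.24 in their deviations from the group means, and 0 of 5 dtg embryos correlated best with their own number.

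Values in every embryo are given for kinesins past an adjusted or unadjusted p of 0.05 and for the 4 with the smallest p in each class; of each partner list the 3 with the smallest p are named. Kif5a was singled out after its values were seen. The members, classes, marker and partner lists were chosen with earlier results of these data known. Alternatives were the replicate block, each embryo left out, quantile normalization, a trended and robust variance prior, weighting of arrays, centring on medians, no genes below the 40th percentile, averaging a gene's probe sets, and covariates for pan-neuronal, G2/M and thalamus markers.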

Additional observations from a re-analysis of the deposited data

Results flagged for a closer look

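Within each group of 5 embryos, 6 kinesin values stood far from the rest by Dixon's ratio, out of 76 groups examined, where chance gives about 1 in 20. In the dtg group, Kif12 read 4.55 in dtg 3, against 4.26 to 4.33 in the other dtg embryos, and Kif3a read 7.66 in dtg 2, against 7.90 to 7.96. In the stg group, stg 2 was high in Kif12 (4.60, against 4.32 to 4.37 in the other stg embryos) and in Kif17 (4.50, against 4.12 to 4.20). Embryo stg 5 was low in Kif21b (7.94, against 8.38 to 8.54 in the other stg embryos) and high in Kif2c (8.59, against 8.34 to 8.41). Kif12 and Kif17 are dim on these arrays. Embryo stg 5 is also the array with the lowest pan-neuronal markers.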

How the results depend on the processing

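No kinesin passed an adjusted p of 0.05 under any of the 20 alternatives, and the smallest adjusted p was 0.276, without dtg 4. The count at an unadjusted p below 0.05, 7 in the main fit, was 3 with the G2/M covariate (all transport genes), 4 with the pan-neuronal covariate (2 mitotic, 2 transport) and 0 with the thalamus covariate. The share of all genes past that limit, 7.58% in the main fit, was 5.81%, 8.05% and 2.79% in these fits. It ran between 3 and 10 when 1 embryo was left out: 3 mitotic genes without stg 5, those 3 and Kif17 without dtg 1, those 3 and Kif4-ps without dtg 3 (4 each), and 10 without dtg 4, which are 8 mitotic genes lower and the transport genes Kif13b and Kif21a higher. The share of all genes was 6.83% without stg 5, 5.78% without dtg 1, 5.72% without dtg 3 and 9.53% without dtg 4. Kif18a, Kif20b and Kif23 stayed below 0.05 without dtg 1, dtg 3 or stg 5. With the replicate number as a block the count was 6 and the smallest kinesin adjusted p 0.530, which changed no adjusted call. The block took the calls over all genes to 2, against 21. Kinesins with groups that did not overlap numbered 1 with median centring (Kif20b) and between 0 and 2 with 1 embryo left out: Kif2c and Kif13b without dtg 4, Kif20b and Kif23 without stg 4, and Kif19a without stg 2. The block and covariate fits give no such count. The share of all genes without overlap, 1.6% in the main fit, was not counted in the other fits. These kinesin counts therefore have no background beside them and are not read as a result. The mitotic median was -0.048 with the G2/M covariate and between -0.29 and -0.18 with 1 embryo left out. The contrast of medians was -0.047 with the thalamus covariate and -0.40 to -0.24 with 1 embryo left out. The transport median reversed to -0.050 with the thalamus covariate and was 0.042 to 0.11 with 1 embryo left out. With the thalamus covariate Kif13b was -0.036 and Kif21a -0.12, both reversed. A covariate that differs between groups also takes up part of the group difference, and the causes of these changes were not tested. The table has no detection call or background, so how far the dim kinesins lie above background is unknown.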

Other observations

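With the G2/M marker mean as a covariate, 3 of the 38 kinesins had an unadjusted limma p below 0.05. In either direction 5.81% of all genes did in that fit, so the kinesin share was near the background. For lower values alone the share of all genes was 2.59%, and no result is read from 3 genes. All 3 are transport genes with lower estimates in dtg in that fit. Kif21b was at -0.29 ± 0.10 (SE, n = 5 per group), Kif17 at -0.22 ± 0.092 and Kif1a at -0.18 ± 0.077. Without a covariate Kif21b was at -0.029, Kif17 at -0.17 and Kif1a at 0.015. The G2/M marker mean was itself lower on average in dtg, so as a covariate it takes up part of the group difference. With the pan-neuronal mean as a covariate, where 8.05% of all genes passed, Kif21b was at -0.22 ± 0.081 and Kif17 at -0.19 ± 0.085. With the thalamus marker mean 0 kinesins passed. None of these values passed an adjusted p of 0.05, with limma adjusted p values of 0.465 and above. Kif5a, which differed by 0.35 without a covariate, was at -0.039 ± 0.063 with the pan-neuronal mean.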
